A study of Mus musculus with 3 samples.

Results

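The cytosolic ribosomal protein genes encode the protein subunits of the ribosome that translates messenger RNA outside mitochondria. They were chosen by gene symbol: Rpl or Rps followed by a number and, where present, the letters a, x or l, together with Rplp0, Rplp1, Rplp2 and Rpsa. S6 kinases, pseudogenes and mitochondrial ribosomal proteins were left out. RefSeq lists 85 protein-coding genes under this rule, 53 of the large and 32 of the small subunit. Of the 36799 genes and transcripts with a probe on the array, 84 were ribosomal protein genes, and of the 21743 that were tested, 81 were.

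RNA came from primary cultures of mammary tumors of MMTV-PyMT mice, in which the mouse mammary tumor virus promoter drives the polyoma middle T oncogene. The cultures were grown in DMEM F12 with serum, cholera toxin, insulin and EGF. For each of 3 tumors, here called 1, 2 and 3, a culture treated with RANKL (RL) for 24 h and an untreated control culture shared 1 two-color Agilent array, so each array gave 1 RL over control ratio. The labels give the RL concentration as 1000 µg/ml. The study's methods give a far lower one, and the files do not settle which was used. The RL culture carried Cy3 on the arrays of tumors 1 and 3 but Cy5 on that of tumor 2, and the 3 arrays lay on 1 slide that was read in 1 scan. Because tumor 2 alone had this dye order, a dye effect and a different response of tumor 2 cannot be told apart for any single gene. Each array held 59305 probe spots, and between 54.6% and 56.2% of probes were well above background in each channel.

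Ribosomal protein mRNAs are among the most abundant messages of growing cells, and their products are built together into each ribosome. In vertebrates they begin with a 5′ terminal oligopyrimidine (TOP) tract, a C followed by a run of C or T bases, through which mTORC1 and Larp1 control their translation. Several subunits also act outside the ribosome, and RL, the ligand of the receptor RANK, is best known for switching on NF-κB in osteoclast precursors and mammary epithelium.

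Short windows around the annotated start are shown for members that the results return to, to show where the TOP tract lies. Each has 15 bases before and 15 bases from the RefSeq (GRCm38.p6) start on, with a pyrimidine run in capitals from the C nearest the start, where the window had one.

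Rps6: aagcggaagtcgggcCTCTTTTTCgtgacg
Rpl14: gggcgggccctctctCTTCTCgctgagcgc
Rpl13a: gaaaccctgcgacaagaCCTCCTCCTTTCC
Rpl22l1: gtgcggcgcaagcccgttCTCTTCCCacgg
Rplp0: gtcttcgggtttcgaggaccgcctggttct
Rps3: cttgcaagggtcgccgcgctgcgcggcgtc

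These lie at chr4:86857353-86857382 (Rps6, minus strand), chr9:120571502-120571531 (Rpl14, plus strand), chr7:45128731-45128760 (Rpl13a, minus strand), chr3:28805493-28805522 (Rpl22l1, plus strand), chr5:115559452-115559481 (Rplp0, plus strand) and chr7:99483695-99483724 (Rps3, minus strand). The capitals begin at the annotated start in Rps6 and Rpl14, 2 bases after it in Rpl13a and 3 bases after it in Rpl22l1. In Rps6, Rpl14 and Rpl22l1 the bases just before the capitals are C or T as well, so that the stretch of pyrimidines begins further upstream. The windows of Rplp0 and Rps3 held no such run, which says only that these letters were not found near the start as annotated. Of the 85 genes, 65 had a promoter in the RefSeq table. A C followed by at least 4 further C or T bases, beginning within 10 bases of the start on the gene's strand, was found in 40 of these 65 (61.5%), against 34.4% of 27025 genes with a promoter. In the whole promoter windows of the table, which reach from upstream of the start to 50 bases after it, the letters CCGGAAG or their reverse complement CTTCCGG, as bound by GABP factors, were found in 26 of 65 genes (40.0%) against 9.93% of all genes. The letters AAGATGGC or GCCATCTT, as bound by YY1, were found in 6 of 65 (9.23%) against 3.19%. CTTCCGG can overlap a pyrimidine run.

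After RL, no ribosomal protein gene passed an adjusted p of 0.05 in limma, against 0.0276% of the 21743 genes tested. At an unadjusted p under 0.05, 1 of 81 was higher (3.58% of all genes) and 0 of 81 were lower (3.56% of all genes). For tumors 1, 2 and 3 the median log2 RL over control of the 81 genes was -0.25, 0.24 and -0.25, while the medians over all genes were -0.0044, 0.0036 and -0.0014. The mean ratio of the 3 tumors had a median of -0.08 over the members and of -0.00089 over all genes. The sign of the members' medians thus went with the dye that carried RL: they were below 0 where RL was in Cy3 and above 0 where it was in Cy5. In 65 of 81 members the ratio was below 0 in tumors 1 and 3 and above 0 in tumor 2, a pattern shown by 18.4% of the 21721 genes with a value on all 3 arrays. It was seen in 64 of 81 members with the mean over the probes of a gene (3919 of 21728 over all genes) and in 30 of 81 with the scanner software's processed signals (16.2% of all genes). The ratios below are from loess-normalized intensities unless the processed signals are named.

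**Figure D1:**
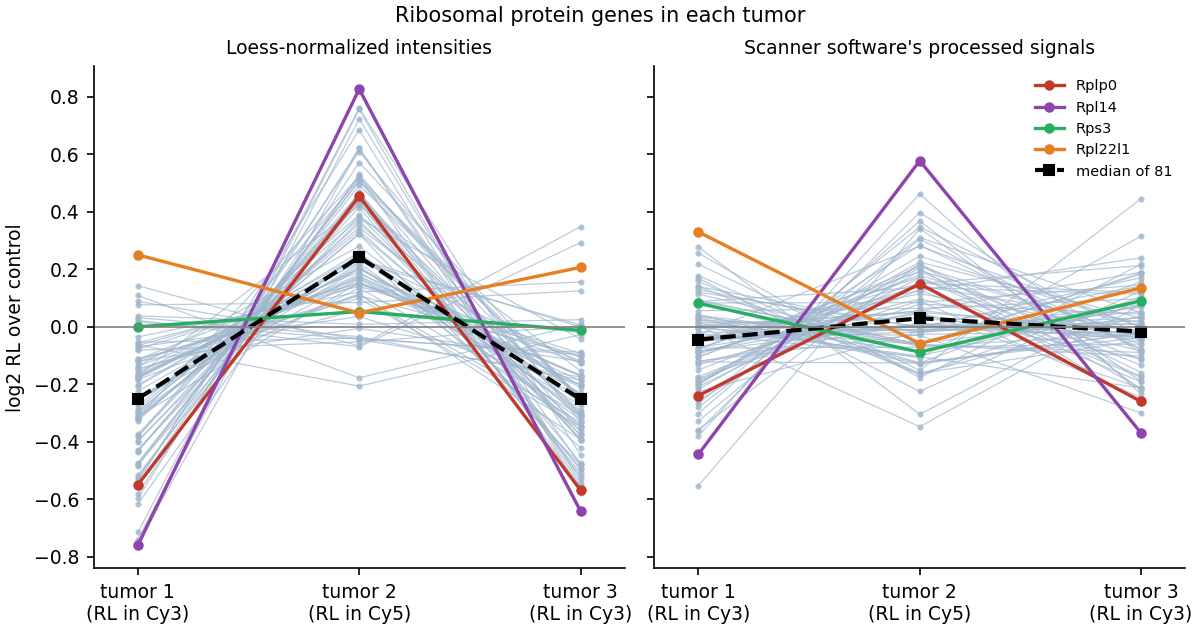
Log2 RL over control of the 81 tested ribosomal protein genes in each tumor, from loess-normalized intensities (left) and from the scanner software's processed signals (right). Each line joins the values of 1 gene, 4 genes are colored, and the dashed line is the median, which lay at -0.25, 0.24 and -0.25 on the left and at -0.04, 0.03 and -0.02 on the right.

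Rplp0, the scaffold of the stalk that recruits elongation factors to the large subunit and a common reference gene for quantitative PCR, had the lowest mean ratio of the members. Its normalized log2 intensity was 17.79 in the control culture and 17.24 in the RL culture of tumor 1. In tumor 2 it was 17.33 in the control and 17.79 with RL, and in tumor 3 it was 17.80 in the control and 17.23 with RL. The Cy5 channel read between 17.79 and 17.80 on all 3 arrays after normalization, which evens out intensities between the arrays. Raw Cy5 intensities were 354608, 361207 and 342498 in tumors 1, 2 and 3, and raw Cy3 intensities 98084, 101869 and 104417. The log2 RL over control was -0.55, 0.45 and -0.57 (SD 0.58). Its mean was -0.22 ± 0.17 (limma's moderated SE, n = 3), with a 95% confidence interval from -0.62 to 0.17 (adjusted p = 0.854, limma). The moderated SE and the interval borrow spread from all genes tested, so this SE is not that of the 3 ratios alone. The other stalk proteins, Rplp1 and Rplp2, bind Rplp0 as dimers. The ratio of Rplp1 was -0.18, 0.20 and -0.23 in tumors 1, 2 and 3. That of Rplp2 was -0.48, 0.51 and -0.39. With the processed signals Rplp0 and Rplp2 kept their signs in each tumor, while Rplp1 had 0.02, -0.01 and 0.05.

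Low means were also those of the large subunit genes Rpl32 (-0.21), Rpl23 (-0.20) and Rpl14 (-0.19). Rpl14 had the widest swing of the members, with log2 RL over control of -0.76, 0.83 and -0.64. Its normalized log2 intensity in control cultures was 17.66, 16.96 and 17.73, and in RL cultures 16.90, 17.78 and 17.09. Control and RL levels overlapped, and the SD of the ratios (0.88) was several times the mean of -0.19. The positive ratio came from the array with the swapped dyes. In this SD, a dye effect and a difference between tumors therefore cannot be told apart.

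Rps6, the substrate of the S6 kinases downstream of mTORC1, had log2 RL over control of -0.43, 0.46 and -0.52 in tumors 1, 2 and 3. Rpl5 and Rpl11, which with 5S rRNA bind Mdm2 when ribosome assembly is disturbed, had ratios of -0.17, 0.17 and -0.17, and of -0.52, 0.46 and -0.38, respectively. Rpl26, which binds the Trp53 message, had -0.25, 0.22 and -0.32. The brightest probes of all 4 genes had the sign order of the members' medians. A dimmer Rps6 probe had -0.02, -0.02 and -0.11, and a dimmer Rpl26 probe 0.14, -0.11 and 0.13. The other dimmer probe of each had the order of the medians, as had both dimmer Rpl11 probes. With the processed signals Rps6, Rpl5 and Rpl26 kept that order, and Rpl11 had -0.18, 0.08 and 0.04. The order was also that of Rpl10, a late-joining protein of the large subunit (-0.52, 0.52 and -0.56), and of the brightest probe of Rpl13a, which can leave the ribosome to silence inflammatory transcripts (-0.18, 0.11 and -0.33). The 2 dimmer Rpl13a probes had 0.01, 0.00 and -0.06, and -0.01, -0.02 and -0.02. The order held for Rpl38, needed for translation of Hox messages (-0.43, 0.45 and -0.39), and for Rpsa, also known as the laminin receptor (-0.55, 0.53 and -0.37). It held for Rps14, whose human counterpart is lost in the 5q- syndrome (-0.72, 0.76 and -0.45), and for Rps27a, made as a fusion with ubiquitin (-0.40, 0.37 and -0.38). With the processed signals Rpl10, Rpl38, Rpsa and Rps14 kept it, but not Rpl13a (-0.02, -0.10 and -0.21) and Rps27a (-0.05, 0.01 and 0.01). Of the dimmer Rpsa probes, 1 had the order and 2 had 0.01, -0.06 and 0.06, and 0.16, 0.09 and 0.18. The dimmest Rps27a probe had 0.08, -0.12 and 0.00, while the next brighter one had the order.

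The remaining 16 of the 81 members did not show that order of signs. Rps3, which lines the entry of the mRNA channel and is also known as a partner of the NF-κB subunit RelA, had log2 RL over control of 0.00, 0.05 and -0.01. Its mean was 0.01 ± 0.07 (moderated SE, n = 3), with a 95% confidence interval from -0.14 to 0.17 (adjusted p = 0.978, limma). The SD of the 3 ratios was 0.03. A dimmer Rps3 probe had 0.07, 0.08 and 0.01. Rpl3, at the peptidyl transferase center, had 0.03, -0.03 and -0.18, and the X-linked Rps4x had 0.11, -0.18 and 0.01. Rps19, mutated in Diamond-Blackfan anemia, had -0.12, -0.01 and -0.12. In all 3 tumors Rps7, Rps18 and Rps19 were lower with RL and Rpl7a, Rpl22l1 and Rps27l were higher. These are 3 of 81 lower and 3 of 81 higher, against 13.5% and 14.2% of all genes. Of these 6 genes only Rps19 kept 1 sign in all tumors with the processed signals (-0.12, -0.13 and -0.02). A dimmer Rps18 probe (0.11 in tumor 2) and 2 dimmer Rpl7a probes (-0.06 in tumor 1 and -0.12 in tumor 2) also broke the order. Rps7 and Rps18 were named after their values were seen.

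Rpl22l1 was the member that passed an unadjusted p of 0.05. It is the like-named relative of Rpl22, a large subunit protein that mice can live without and that αβ T cells need to develop. The normalized log2 intensity of Rpl22l1 was 15.06, 15.17 and 15.09 in control cultures and 15.31, 15.22 and 15.30 in RL cultures. Its log2 RL over control was 0.25, 0.05 and 0.21 (SD 0.11). The mean was 0.17 ± 0.07 (moderated SE, n = 3), with a 95% confidence interval from 0.00 to 0.33. In limma the unadjusted p was 0.0474 and the adjusted p 0.695. With the scanner software's processed signals the ratio was 0.33, -0.06 and 0.14 and the unadjusted p of limma 0.238, adjusted p 0.830. Rpl22 itself had -0.17, 0.42 and -0.15. The ratio of Rpl22l1 minus that of Rpl22 was 0.42, -0.37 and 0.36, which changed sign in tumor 2. These values are from the brightest Rpl22 probe. A dimmer Rpl22 probe had -0.14, -0.12 and -0.11, below the ratio of Rpl22l1 in each tumor.

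The other highest means were those of Rpl36a (0.14; 0.14, -0.07 and 0.35 in tumors 1, 2 and 3), Rpl7a (0.10; 0.08, 0.08 and 0.13), Rps21 (0.08; 0.02, -0.07 and 0.29) and Rpl36al (0.08; -0.03, 0.12 and 0.16). None reached an unadjusted p of 0.05. Rpl36a and Rpl36al encode nearly the same protein, and the ratio of Rpl36al minus that of Rpl36a was -0.18, 0.19 and -0.19. These values are from the brightest Rpl36a probe. An Rpl36a probe of nearly the same brightness had 0.13, 0.03 and 0.37, and a dimmer one -0.13, 0.19 and 0.12. Rps27l, a relative of Rps27 that is a target of Trp53, had 0.04, 0.01 and 0.03, and Rps27 had -0.30, 0.34 and -0.24. Rpl7l1, a relative of Rpl7, had -0.08, -0.05 and 0.00, and Rpl7 had -0.47, 0.49 and -0.25. Rpl32l, a relative of Rpl32, had -0.32, 0.32 and -0.48, and Rpl32 had -0.62, 0.47 and -0.47, so that both had the same order of signs. With the processed signals Rps27 had -0.04, 0.00 and 0.14, and Rpl7 had -0.20, 0.23 and 0.03. With 3 tumors an exact sign-flip test of such a difference cannot give a two-sided p under 0.25.

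A further 3 like-named relatives were not well above background in either condition and were not tested. They were Rpl3l, known from heart and skeletal muscle, and Rpl10l and Rpl39l, known from testis. The Rpl3l spot read 28.5, 29.5 and 29.0 in Cy3 over local backgrounds of 30.0, 33.0 and 35.0, and 73.5, 71.0 and 72.0 in Cy5 over 69.0, 68.0 and 73.0. The Rpl10l probes were well above background in 0 of 6 channels, and the Rpl39l probe in 2 of 6, both on the array of tumor 3. Their partners Rpl3, Rpl10 and Rpl39 were well above background in all 6 channels, as were all 81 tested members. The brightest Rpl39 probe had ratios of 0.09, -0.04 and -0.17, a probe of nearly the same brightness had 0.21, -0.08 and 0.26, and a dim probe had 0.03, 0.15 and 0.42. The mean over the 3 probes turned the ratio of Rpl39 from -0.04 to 0.09. No probe was matched to Rpl37.

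The members' ratios of Cy5 over Cy3 were largest where their probes were brightest. Over the 3 arrays the median log2 Cy5 over Cy3 was 0.24 for the 81 members and 0.00 for all genes, and Cy5 was higher on all 3 arrays in 65 members. Among probes with a mean log2 intensity of 15 to 16, the median log2 Cy5 over Cy3 was 0.06 for 18 members and 0.04 for 488 other genes. Between 16 and 17 it was 0.23 for 36 members and 0.21 for 340 others. From 17 up it was 0.48 for 24 members and 0.43 for 80 others. Members and other genes of like brightness thus had like dye ratios. Across the 81 genes, which share arrays and are not independent, brightness and log2 Cy5 over Cy3 had a Pearson's r of 0.68 and a Spearman's rho of 0.90. No spot was marked as saturated on any array. The part of the dyes in the members' ratios was not tested beyond these values.

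**Figure D2:**
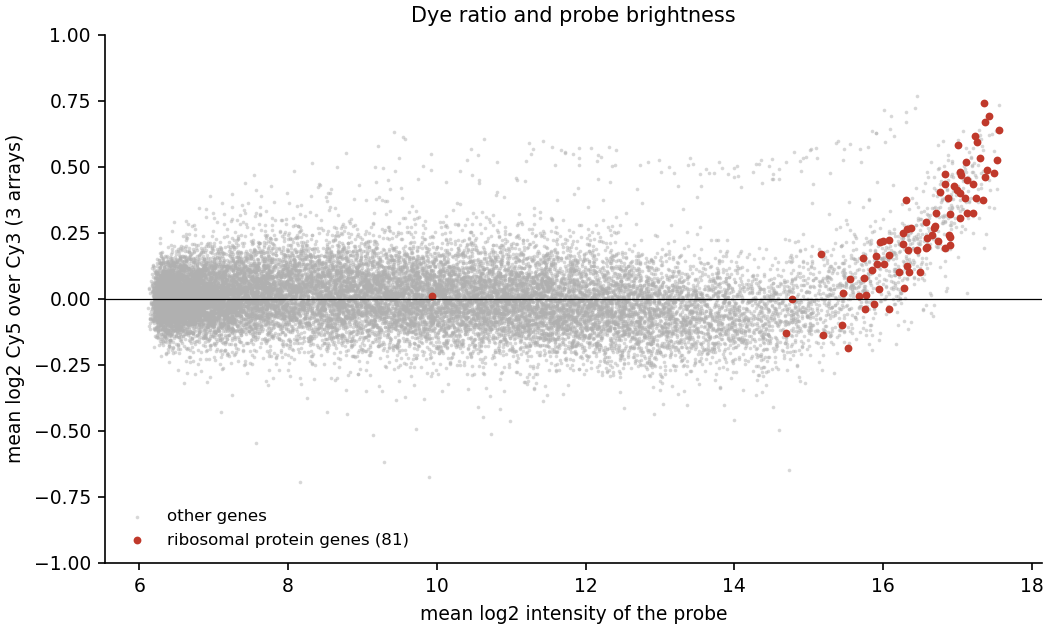
Mean log2 Cy5 over Cy3 of the 3 arrays (vertical) against the mean normalized log2 intensity of the probe (horizontal), with 1 point per gene, the 81 ribosomal protein genes in red and other genes in gray. Both groups bend upward at the bright end, where from 17 up the medians were 0.48 and 0.43.

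The likeness of the arrays across the members had the same form. The log2 RL over control of tumors 1 and 3, with RL in the same dye, had a Pearson's r of 0.81 across the 81 genes. Tumor 2 had an r of -0.92 with tumor 1 and of -0.75 with tumor 3. Over the 21721 genes with all values these were 0.45, -0.11 and -0.11. Genes are not independent replicates, and these correlations are descriptions of the arrays.

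Probes of 1 gene differed in the same way. Of the 81 members, 51 had more than 1 probe well above background, 137 probes in all. The median log2 Cy5 over Cy3 was 0.27 for the brightest probe of each gene and 0.06 for the dimmest, and the brightest had the higher value in 45 of 51 genes. In 16 of 51 genes the mean log2 RL over control of these probes had opposite signs. The 3 probes of Rplp0, from bright to dim, had mean log2 RL over control of -0.22, -0.15 and -0.01. Rpl23 had a dim probe that was spotted 10 times on each array, which gives the technical error of a spot. Its 10 spots averaged 0.08 ± 0.05 (SD), -0.17 ± 0.06 and 0.16 ± 0.05 in tumors 1, 2 and 3, while the brightest Rpl23 probe had -0.75, 0.62 and -0.48. The brightest and the dim probe of this gene therefore differed by far more than the spots of 1 probe, and with opposite sign on each array. The remaining Rpl23 probe, of a brightness between them, had -0.56, 0.35 and -0.49, with the signs of the brightest.

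**Figure D3:**
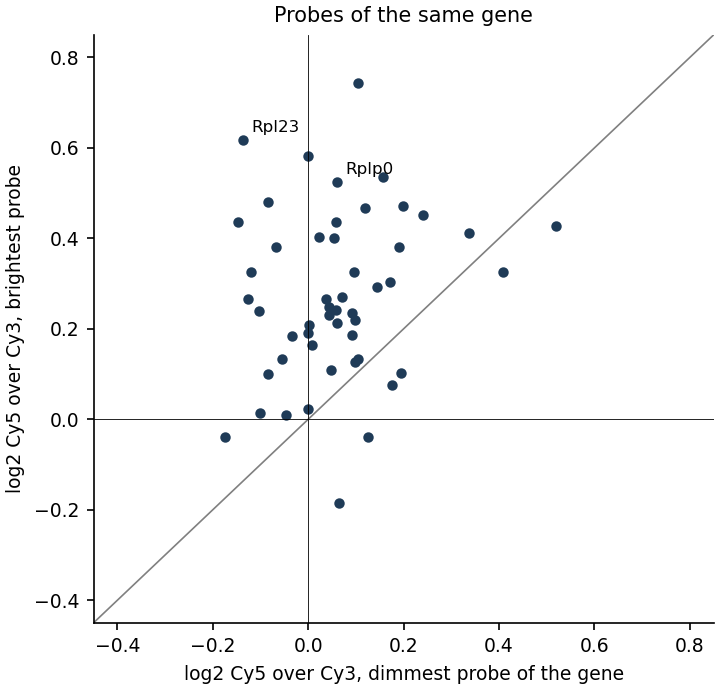
Mean log2 Cy5 over Cy3 of the brightest probe (vertical) and the dimmest probe (horizontal) of 50 of the 51 ribosomal protein genes with more than 1 probe well above background, with 1 point per gene. The gray line marks equal values, and 44 points lie above it.

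When a term for the dye was added to the limma fit, which weights tumor 2 as much as tumors 1 and 3 together, the median log2 RL over control of the members was 0.01, against 0.00 over all genes. None of the 81 had an adjusted p under 0.05, against 1.57% of all genes, and none had an unadjusted p under 0.05, against 9.73%. All 95% confidence intervals of this fit included 0, and they reached from -0.27 at the lowest (Rps18) to 0.29 at the highest (Rpl22l1). All 81 therefore lay within 0.5 on either side of 0, against 66 of 81 without the dye term. The estimate of Rplp0 was -0.05 (95% confidence interval from -0.20 to 0.10), and that of Rpl22l1 was 0.14 (from -0.01 to 0.29). This fit leaves 1 residual degree of freedom for each gene, and its interval rests mainly on the spread borrowed from the other genes.

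**Figure D4:**
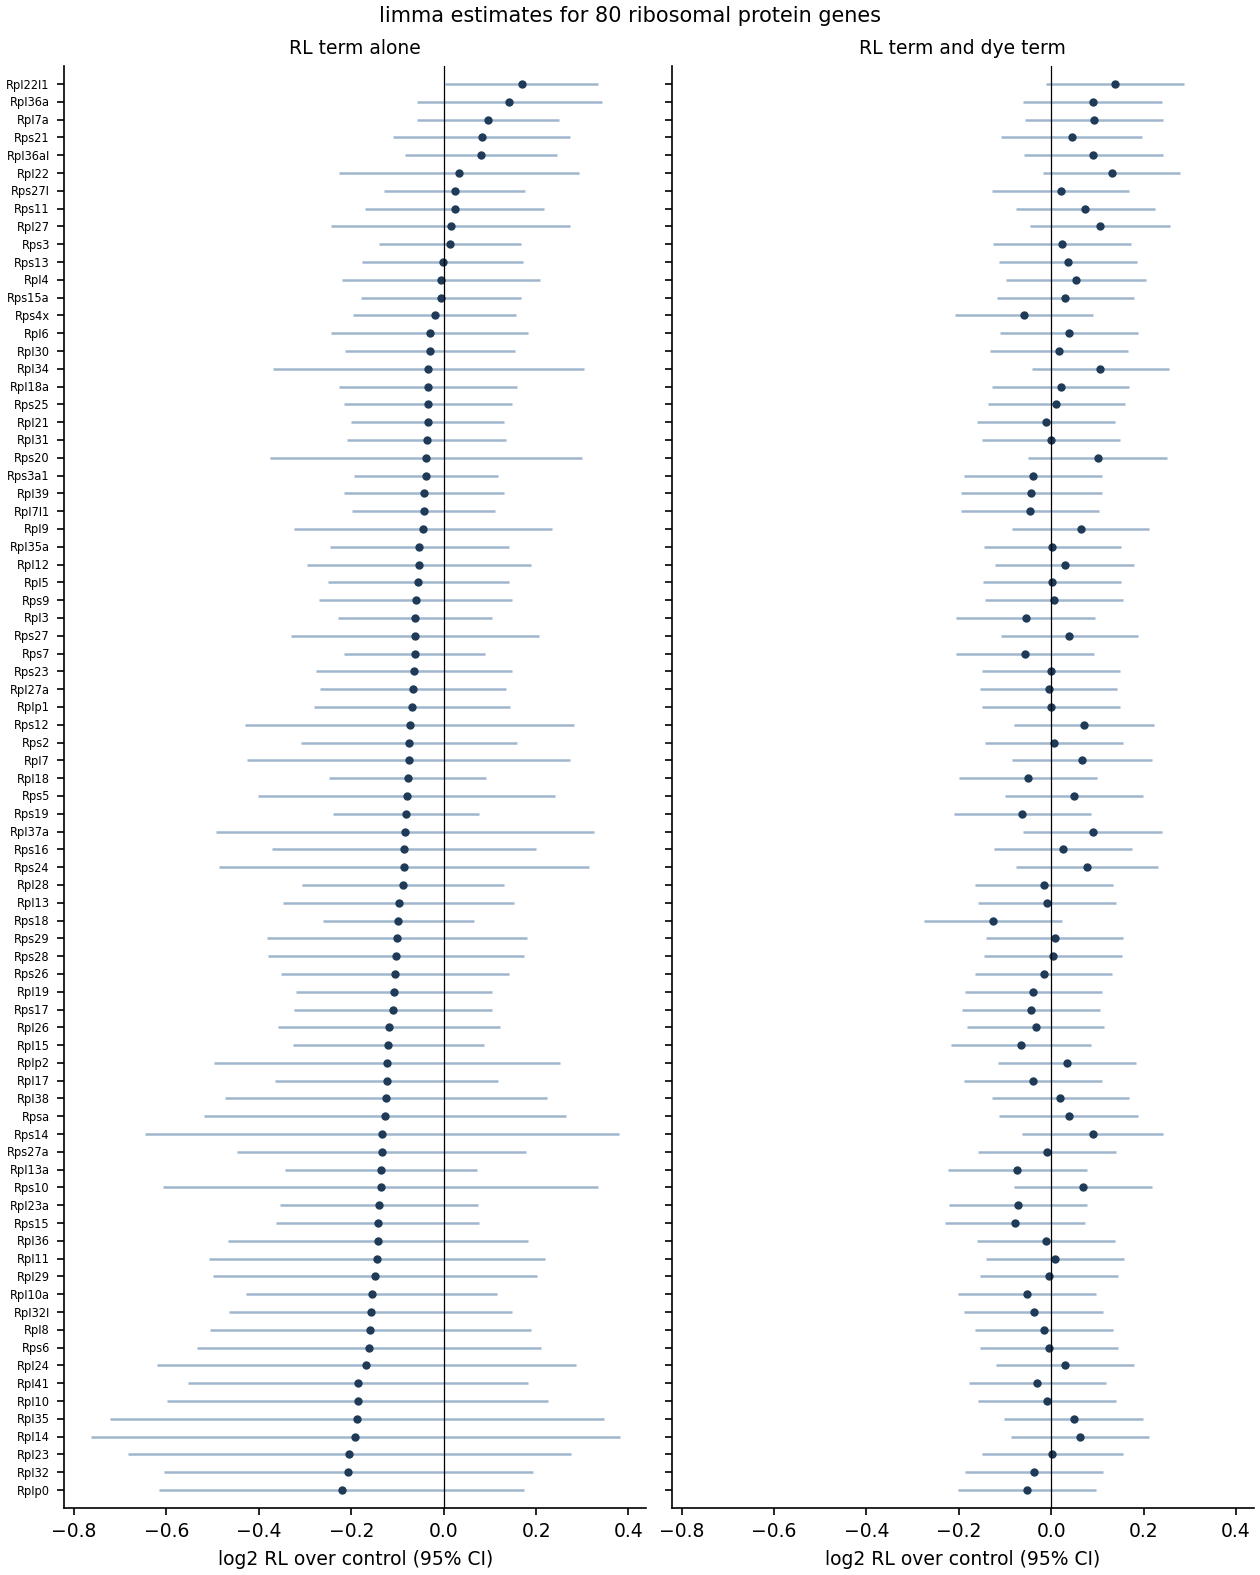
Log2 RL over control of 80 of the 81 tested ribosomal protein genes (points) with 95% confidence intervals (bars) from limma with the RL term alone (left) and with a dye term (right), in the order of the left panel. On the left the estimates run from -0.22 (Rplp0) to 0.17 (Rpl22l1), and on the right every interval includes 0.

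The scanner software's processed signals, which had been normalized for the dyes by that software, gave member medians of -0.04, 0.03 and -0.02 in tumors 1, 2 and 3. Rpl14 still had -0.44, 0.58 and -0.37 with these signals. Across the 81 members tumor 2 had a Pearson's r of -0.81 with tumor 1 and of -0.49 with tumor 3 in these signals, and tumors 1 and 3 had 0.60. Over all genes these were 0.0062, 0.0050 and 0.33. Without tumor 2, where RL and Cy3 coincide on both arrays, 40 of 81 members were lower at an adjusted p under 0.05 in limma (4.44% of all genes) and none was higher. By the rank product 30 of 81 members had a one-sided p under 0.05 for lower (5.88% of all genes) and 6 for higher (5.28%), 5 of them in both directions. None had a proportion of false positives under 0.05, the lowest being 0.0975 for Rpl14.

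The 49 tested large subunit genes had median log2 RL over control of -0.25, 0.24 and -0.31 in tumors 1, 2 and 3, and the 32 small subunit genes had -0.24, 0.24 and -0.25. The order of signs with tumor 2 alone above 0 was seen in 42 of 49 large and 23 of 32 small subunit genes (21 and 9 with the processed signals), and the 3 members lower in all tumors were all of the small subunit. With the dye term the medians were -0.00033 for the large and 0.02 for the small subunit. The subunits were not tested against each other. Grouped by promoter, the 37 tested genes with a pyrimidine run at the annotated start had a median of -0.07 over the mean ratios and the 24 without one -0.08.

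Fau, which encodes a ribosomal protein fused to a ubiquitin-like protein and lies outside the symbol rule, followed the same order, with log2 RL over control of -0.39, 0.26 and -0.27. Among 20 translation factors and other TOP genes, 0 passed an unadjusted p of 0.05 and the medians were -0.06, 0.06 and -0.11 in tumors 1, 2 and 3. The lowest of these was Eef1a1, the elongation factor that brings aminoacyl-tRNA to the ribosome (-0.36, 0.20 and -0.34), and the highest was Nap1l1 (0.23, -0.04 and 0.15). The 77 tested mitochondrial ribosomal protein genes had medians of 0.03, -0.02 and 0.08, and 1 of them was higher at an unadjusted p under 0.05 (3.58% of all genes) and 0 were lower (3.56%), with 0 of 77 in either direction without pairing by tumor. The 1 was Mrpl3 (0.17, 0.16 and 0.20), and the lowest was Mrpl18 (-0.28, 0.07 and -0.10). The sign order of the cytosolic genes was seen in 9 of these 77 (18.4% of all genes).

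None of the genes that build ribosomes or regulate their proteins passed an adjusted p of 0.05 in limma. Of 37 biogenesis factors, 9 were higher with RL in all 3 tumors (14.2% of all genes) and 0 were lower (13.5%), with medians of 0.16, -0.01 and 0.04. At an unadjusted p under 0.05, 3 of the 37 were higher (3.58% of all genes), and 0 of the 37 without pairing by tumor. The highest was Fbl, the methyltransferase of ribosomal RNA (0.32, 0.07 and 0.28; adjusted p = 0.561 in limma), and the lowest was Pes1 (-0.34, 0.19 and -0.22). None of 13 RNA polymerase I genes passed an unadjusted p of 0.05, with Taf1d highest (0.05, -0.04 and 0.29) and Ubtf lowest (-0.70, 0.80 and -0.65). Of these 13, 0 were higher with RL in all 3 tumors (14.2% of all genes) and 4 were lower (13.5%). The counts were also 0 and 4 with the processed signals. Of 16 tested regulators of ribosomal protein synthesis, 1 was higher at an unadjusted p under 0.05 (3.58% of all genes), and 0 without pairing by tumor. The 1 was Rps6kb1, an S6 kinase (0.23, 0.01 and 0.44; adjusted p = 0.657 in limma), and the lowest was Eif4ebp1 (-0.08, -0.20 and -0.14). None of the 5 genes of the Mdm2 and Trp53 response to free ribosomal proteins passed an unadjusted p of 0.05, from Ccng1 (0.01, -0.25 and -0.03) to Mdm4 (-0.03, 0.02 and 0.23).

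All 8 NF-κB target genes were higher in all 3 tumors (14.2% of all genes), each with an unadjusted p under 0.05 (3.58% of all genes). All 8 passed an adjusted p of 0.05 in limma with the dye term (1.57% of all genes in either direction) and none without it. Without pairing by tumor, 5 of 8 were higher at an unadjusted p under 0.05 (0.207% of all genes) and none passed an adjusted p of 0.05. Nfkbia, which encodes the inhibitor IκBα, had 1.47, 0.47 and 0.38, and the lowest was Tnfaip3 (0.65, 0.16 and 0.24). Their medians of 1.15, 0.45 and 0.26 had 1 sign throughout, unlike those of the ribosomal protein genes. The reference genes were divided: Actb had -0.65, 0.56 and -0.69, and B2m had 0.33, 0.05 and 0.05. Of the 8 reference genes, 1 was lower at an unadjusted p under 0.05 (3.56% of all genes), and 0 without pairing by tumor. The 1 was Ywhaz (-0.15, -0.09 and -0.43; adjusted p = 0.638 in limma), with an unadjusted p of 0.0717 in limma without pairing. As a group the reference genes had medians of -0.19, 0.18 and -0.11, the order of the ribosomal protein genes.

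**Figure D5:**
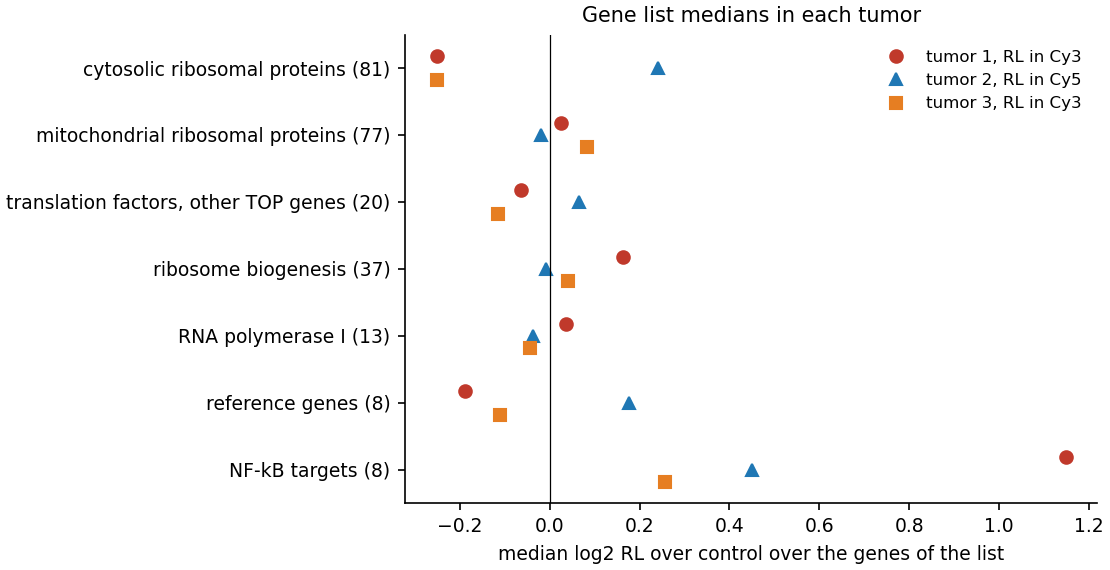
Median log2 RL over control in each tumor for the tested genes of 7 lists, with the number of genes in brackets. Medians of the cytosolic ribosomal protein, translation factor and reference genes lie below 0 in tumors 1 and 3 and above 0 in tumor 2. Those of the mitochondrial ribosomal protein and biogenesis genes have the reverse order, and the NF-κB targets lie above 0 in all 3 tumors.

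All 5 epithelial markers were well above background and were tested, from Krt18 (-0.72, 0.42 and -0.70) to Epcam (0.27, -0.21 and 0.09). Median log2 RL over control in tumors 1, 2 and 3 was 0.16, -0.18 and -0.08 for the epithelial markers, 0.04, -0.07 and -0.08 for 4 basal markers, and -0.29, 0.15 and -0.05 for 7 fibroblast markers. It was -0.11, -0.03 and -0.01 for 5 macrophage markers, 0.02, -0.01 and -0.07 for 2 of 4 T cell markers that were tested, and -0.49, -0.24 and -0.02 for 2 of 3 neutrophil markers, S100a8 and S100a9. Of the endothelial markers, Pecam1 was tested (-0.18, 0.15 and -0.31). At an unadjusted p under 0.05 in limma 3 markers were lower and 0 higher (3.56% and 3.58% of all genes), and none without pairing by tumor. They were the macrophage marker Cd68 (-0.36, -0.14 and -0.18; adjusted p = 0.544), the neutrophil marker S100a8 (-0.78, -0.34 and 0.02; adjusted p = 0.580) and the fibroblast marker Pdgfra (-0.38, -0.15 and -0.05; adjusted p = 0.694). Of the markers, S100a8 passed an adjusted p of 0.05 in limma with the dye term (adjusted p = 0.0150) and none did without it. In cultures of mixed cells, a change in the share of a cell type and a change in RNA per cell cannot be told apart, and the part of cell makeup in the ribosomal protein ratios was not tested.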

How the data were processed

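Per the file headers, the authors deposited spot median intensities and local background intensities for both dyes, read with Agilent Feature Extraction 10.7.3.1, and its processed intensities (background-subtracted, detrended, dye-normalized) with their log10 ratio of Cy5 over Cy3. The deposited log2 table should hold condition over control by the study's methods, while the sample titles order the cultures as Cy5, then Cy3. Set against the normalized Cy5 over Cy3 ratios, it had an r of 0.958, 0.951 and 0.957, slopes of 1.17, 1.20 and 1.18 and medians of 0.00, so its direction was Cy5 over Cy3, the order of the titles.

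In R 4.3.3 with limma 3.58.1, median intensities were corrected by normexp (offset 50), and control and outlier spots were dropped. Ratios were normalized by intensity loess (span 0.3) and spatial loess (span 0.1), then Aquantile. Accessions matched RefSeq for 28026 of 55681 probes. A gene was read from its brightest probe, provided the probe exceeded background in every RL or every control channel. RL over control was fitted with lmFit and eBayes and adjusted by Benjamini-Hochberg over 21743 genes; the array pairs both cultures of a tumor, as the labels state. Programs were tested on simulated data. Members and gene lists were chosen with earlier results of these data known. Named genes were fixed roles, like-named pairs, the 5 highest and 5 lowest members, and the highest and lowest gene of each list. Some named items are not reported here.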

Additional observations from a re-analysis of the deposited data

How the results depend on the processing

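The count of ribosomal protein genes past an adjusted p of 0.05 was 0 under each alternative except without 1 tumor, where it ranged from 0 to 40. The 40 came without tumor 2, when RL lay in Cy3 on both arrays. Without 1 tumor the median log2 RL over control ranged from -0.26 to 0.01, the count higher at an unadjusted p under 0.05 from 0 to 2, the count lower from 0 to 51, and the median log2 Cy5 over Cy3 from 0.23 to 0.26. The 2 and the 51 also came without tumor 2, when 9.05% of all genes were higher and 10.8% lower at an unadjusted p. With all tumors the median log2 RL over control ranged from -0.28 with median centring (-0.08 over all genes) to 0.01 with a dye term. The count lower at an unadjusted p was 30 by the rank product, against 0 in limma. The count higher was 1 and became 0 with a dye term, an intensity trend, no background correction, processed signals, median centring, the authors' log2 ratios and no pairing by tumor, and 6 by the rank product. Over all genes, no pairing took the count past an adjusted p from 6 to 0, those higher and lower at an unadjusted p from 778 and 775 to 45 and 20, and the unadjusted p to 0.0804 for Rpl22l1, 0.159 for Mrpl3, 0.0654 for Fbl and 0.0869 for Rps6kb1.

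The median log2 Cy5 over Cy3 of 0.24 was 0.28 without background correction, 0.021 with processed signals, 0.26 without spatial loess, 0.98 with median centring (0.30 over all genes), 0.23 without a filter on dim probes, 0.16 with the mean over probes, 0.25 in the authors' ratios and 0.10 with an intensity loess span of 0.1 in place of 0.3, which was chosen after seeing the data. The cause was not tested. Of 544 ratios of 32 named genes under alternative processing, 57 (in 25 genes) changed sign, and none of these was past an adjusted p of 0.05. Without tumor 2, Rpl14 went from -0.19 to -0.70 and Rplp0 from -0.22 to -0.56.

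The number of arrays limits the precision, and tumor 2 alone had the swapped dyes. All tested members were well above background, and the brightest probe had a higher log2 Cy5 over Cy3 than the dimmest in 45 of 51 genes and a lower one in 6. The part of the dyes was not tested. Probe sequences were not used here, so matches to ribosomal protein pseudogenes were not tested.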
